A study of Mus musculus with 2 samples.

Results

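Oligodendrocyte precursor nuclei were examined in hippocampal single-nucleus RNA sequencing of Stra8-cKO mice. The members were 867 of 35285 barcodes that passed the filters on genes and mitochondrial UMIs, 378 male and 489 female (a UMI is a molecular tag, so copies of 1 molecule are counted once). A member had at least 500 genes, at most 5% of its UMIs in mitochondrially encoded genes and at most 8000 UMIs. It also had at least 5 UMIs over the markers Pdgfra, Vcan, Lhfpl3, Cspg4 and Sema3d with at least 3 of these detected, and at most 1 UMI of the myelin genes Mog, Mag and Aspa. Measured values of these 8 genes thus chose the members, and a difference between members and other nuclei is a description and no test.

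Both libraries came from the hippocampus of mice aged 3 months with the genotype Stra8L/-; Nestin-Cre, with 1 male and 1 female library. The labels do not say how many animals went into each. The deletion is shared by both groups and no library of another genotype was analysed here, so no value bears on the effect of losing Stra8. Nestin-Cre acts in neural progenitors, from which neurons, astrocytes and oligodendrocyte precursors descend, while microglia come from another lineage. Each group is 1 library, so effects of sex cannot be told apart from those of the animal, its dissection or its library preparation. No test is possible, and every interval is a 95% interval that covers counting error only.

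Oligodendrocyte precursors are the dividing glial cells of the adult brain that give rise to myelinating oligodendrocytes. They receive platelet-derived growth factor through PDGFRA, carry the chondroitin sulphate proteoglycan NG2 (the product of Cspg4), and hold synaptic input from neurons through glutamate and GABA receptors. On commitment they lower these surface proteins, pass through a short stage marked by GPR17 and ENPP6, and then express myelin proteins.

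Promoter sequences of 4 genes are shown. Lhfpl3 is a marker of the rule, Sox6 and Tes stood among the 25 other genes with the largest ratio over other barcodes, and Sgk1 is a glucocorticoid receptor target, a group described further on. They were picked for holding a motif. They run from 250 bases before to 50 bases after the start of a transcript (RefSeq, GRCm38.p6, the gene's strand). Capitals mark the SOX-type motif AACAAAG and the E-box CAGCTG in Lhfpl3, Sox6 and Tes, and the glucocorticoid half-site AGAACA in Sgk1, which also holds the full element (AGAACA, any 3 bases, then TGTTCT), each searched on both strands. The half-site lies within the full element. The sequences lie at chr5:22745804-22746103 (Lhfpl3, plus strand), chr7:115846091-115846390 (Sox6, minus strand), chr6:17064899-17065198 (Tes, plus strand) and chr10:21993640-21993939 (Sgk1, plus strand).
Lhfpl3: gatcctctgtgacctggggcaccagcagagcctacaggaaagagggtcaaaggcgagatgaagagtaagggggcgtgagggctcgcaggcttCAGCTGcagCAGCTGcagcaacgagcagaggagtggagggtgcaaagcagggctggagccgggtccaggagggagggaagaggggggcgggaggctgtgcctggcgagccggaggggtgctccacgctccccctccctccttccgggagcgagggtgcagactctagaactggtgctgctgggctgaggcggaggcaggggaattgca
Sox6: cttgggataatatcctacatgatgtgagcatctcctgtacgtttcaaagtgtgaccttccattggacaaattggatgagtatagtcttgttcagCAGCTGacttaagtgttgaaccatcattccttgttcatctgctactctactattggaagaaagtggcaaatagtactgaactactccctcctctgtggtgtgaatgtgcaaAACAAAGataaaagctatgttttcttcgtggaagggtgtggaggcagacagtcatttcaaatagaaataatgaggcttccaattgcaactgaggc
Tes: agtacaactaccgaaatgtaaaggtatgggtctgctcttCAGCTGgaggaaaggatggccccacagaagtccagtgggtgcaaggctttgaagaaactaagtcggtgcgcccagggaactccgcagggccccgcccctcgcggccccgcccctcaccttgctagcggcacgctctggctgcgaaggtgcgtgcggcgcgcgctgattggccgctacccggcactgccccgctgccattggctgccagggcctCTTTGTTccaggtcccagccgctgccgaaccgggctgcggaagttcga
Sgk1: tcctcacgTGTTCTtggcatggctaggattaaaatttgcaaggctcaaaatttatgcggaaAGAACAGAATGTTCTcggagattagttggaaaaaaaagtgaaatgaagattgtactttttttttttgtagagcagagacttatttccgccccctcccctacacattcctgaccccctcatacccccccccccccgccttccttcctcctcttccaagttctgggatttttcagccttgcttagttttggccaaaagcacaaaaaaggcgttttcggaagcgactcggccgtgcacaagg

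AACAAAG was present in 4 of 22 promoters of the 25 genes most raised in precursors, of which 16 genes had a promoter entry, against 5.85% of all 32851 promoters. Of these 4 promoters, 3 belong to Sox6 alone and 1 to Tes. CAGCTG was present in 7 of these 22, against 16.3% of all promoters. Over the larger group of 127 raised genes described below, 7 of 118 promoters held AACAAAG (5.93%) and 21 held CAGCTG (17.8%). The full glucocorticoid element was found in 3 of all 32851 promoters, and 1 of these was the Sgk1 promoter printed above. Of 28 promoter entries of the glucocorticoid receptor targets, 5 held the half-site (17.9%), against 19% of all promoters. A match of letters is a description of the window and not a binding site.

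In total 103262825 UMIs fell on 16174 male barcodes and 108286856 on 20150 female barcodes. Barcode sequences found in both libraries numbered 101, with 0 of them a member in both. Male members held 1297381 UMIs and female members 1696550. Their medians were 3023 and 3182 UMIs and 1809 and 1811 genes, while the other barcodes had medians of 4955 and 2942 UMIs. The medians were thus closer between the libraries in members than in other barcodes. The rule set an upper limit on the total UMIs of members but not of other barcodes, so this closeness is not read as a property of precursors. Mitochondrial UMIs made up a median of 0.875% in male and 1.31% in female members. The sex check genes matched the labels: Xist had 0 and 4267 UMIs in the male and the female members, and Eif2s3y, on the Y chromosome, had 166 and 0.

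Precursors made up 2.36% of the male barcodes (2.13 to 2.60%) and 2.54% of the female barcodes (2.32 to 2.77%), with a ratio of male to female shares of 0.928 (0.809 to 1.06). The interval of this ratio included equal shares, but it did not with at least 1000 genes per nucleus (0.832, 0.725 to 0.954), after thinning each nucleus to 1000 UMIs (0.804, 0.663 to 0.973), or with the 5 rule populations as the total (0.788, 0.687 to 0.903). Per 100 mature oligodendrocytes there were 27.4 male and 20.3 female precursors, a ratio of 1.35 (1.18 to 1.55). Mature oligodendrocytes, chosen by a like rule on Mog, Mag, Aspa, St18 and Ermn, were 8.59% of the male and 12.5% of the female barcodes, so the denominator of the second ratio also differed.

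A few nuclei lay close to the limits of the rule. The marker sum was exactly 5 in 3 male and 7 female members, while 44 male and 106 female barcodes had a sum of 4 and were left out. The limit of 8000 UMIs left out 130 male and 125 female barcodes, and 37 male and 73 female members had 1 UMI of Mog, Mag or Aspa. Rules of the same kind for neurons, astrocytes and microglia were also met by 66 male and 85 female members, 58 and 65 of them by the neuron rule. Without these nuclei, an alternative chosen after seeing the data, the comparison described below had 39 male-high and 40 female-high genes past 2-fold.

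The rule itself required 3 of the 5 marker genes, so their values describe the choice. Their sum per nucleus had a median of 20 UMIs (5 to 66) in male and 23 (5 to 94) in female members. Lhfpl3, a membrane protein of the tetraspan family, had a UMI in 100% of members in both libraries, against 4.90% of male and 6.72% of female microglia. Pdgfra was detected in 87.0% and 87.3% of members and in 2.94% and 3.87% of microglia. The microglia, which should lack these genes, had median depths of 1784 and 1976 UMIs. Vcan, which codes for the matrix proteoglycan versican, was detected in 92.6% and 93.5% of members and in 1.57% and 4.28% of microglia. Sema3d, a secreted guidance protein, was detected in 68.8% and 67.5% of members and Cspg4 in 42.9% and 38.9%, against at most 1.22% of microglia. Of the 5 markers, 3 were detected in 125 male and 166 female members, 4 in 161 and 220, and all 5 in 92 and 103.

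Against all other barcodes, 127 of 3743 genes had a level at least 4 times as high (log2 of at least 2, with 5 CPM added) in both libraries, or 3.39% of the genes with at least 50 CPM and 50 UMIs in the members of each library. CPM are the summed UMIs of a gene scaled to a fixed total of UMIs per population and library. The rule used this contrast, and nothing is read from the count. Of these 127 genes, 115 had a male to female log2 ratio within 0.5 of 0, 1 lay past 1 in size, and the median was -0.02. The choice asked for a high level in both libraries, so this likeness is partly set by it. It is not read as a result. Over all 3743 genes, 56.3% were higher and 31.7% lower in precursors in both libraries by any amount, and 0.775% were at least 4 times lower. These shares are the base for the list counts that follow. Among the 127 genes, the 1 with a male to female ratio past 1 in size was Ptgfrn at -1.13, and Tmem163 had the highest at 0.77.

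Some of the 25 genes with the largest ratios, chosen for being high in precursors, show what the members hold beside the markers. Cacng4, an auxiliary subunit that shapes AMPA receptor gating, had 385 CPM in male and 328 in female members, against 5.52 and 5.73 in oligodendrocytes and 6.77 and 10.3 in neurons. Neu4, a sialidase, had 140.3 and 148 CPM in members and at most 5.04 CPM in each of the 4 other populations. Megf11, a transmembrane EGF-repeat protein, had 445 and 429 CPM and Xylt1, which starts the sugar chains of proteoglycans, had 2009 and 2014 CPM. Xylt1 was also present in astrocytes, at 377 and 424 CPM. The protocadherin Pcdh15 had 2981 and 3028.5 CPM in members, against 248 and 251 in oligodendrocytes.

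Further genes among the 25 with the largest ratios were of several kinds. Gm4876 had 609.7 CPM in male and 793 in female members with log2 ratios over other barcodes of 4.57 in both. The adaptor Shc4, the integrin subunit Itga9 and the GTPase-activating Arhgap31 had ratios above 4 on the log2 scale in both libraries. The non-coding genes Gm42948, Gm38505, 6330576A10Rik, A930009A15Rik and 6030407O03Rik were also among the 25. Ntn1, the guidance factor netrin 1, had 169 and 187 CPM in members and at most 17.6 CPM in the other populations. Kcnh8, a voltage-gated potassium channel, had 284 and 292 CPM against at most 21.9.

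**Figure D1:**
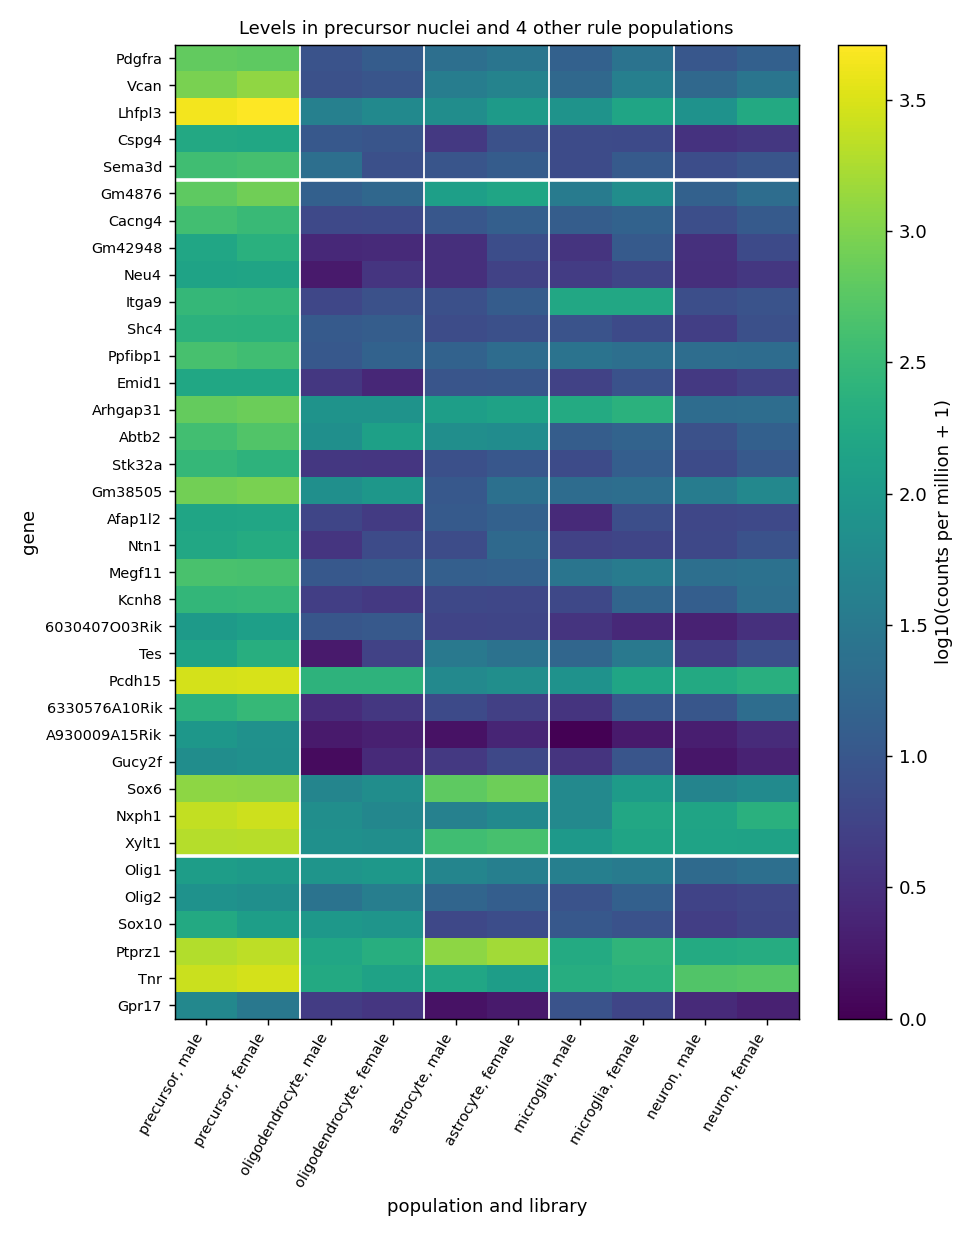
Levels of the 5 rule markers (top), the 25 genes with the largest ratio over other barcodes (middle) and 6 further lineage genes (bottom) in precursors and 4 other populations. Colour is log10 of CPM + 1 and each column is 1 library. The precursor columns are brightest for almost all genes shown, and the male and female columns of 1 population look alike.

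Transcription factors of the oligodendrocyte lineage were raised in part. Of 25 listed, 16 were measured against other barcodes, 11 of these were higher in precursors in both libraries, and 5 passed the 4-fold limit, against 3.39% of all genes. SOX6 and SOX5 are known to hold precursors back from differentiation. Sox6 had 1202 CPM in male and 1171 in female members, and 48.04 and 65.4 in oligodendrocytes. Sox5 had 918 and 958 CPM in members against 77.9 and 59.7 in oligodendrocytes. Myt1, a zinc finger factor of the precursor stage, had 273 and 302 CPM against 10.5 and 7.96. Sox10 and Olig2, factors of the whole lineage, had 176 and 118 CPM and 76.3 and 68.4 CPM in members. Olig2 had a UMI in 20.9% of male and 20.2% of female members, against 1.57% and 2.85% of microglia. Myrf, needed for myelin gene expression, had 20.04 and 15.3 CPM in members and 104 and 118 in oligodendrocytes.

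Of proteoglycan and matrix genes, 16 of 16 measured were higher in precursors than in other barcodes in both libraries, and 9 passed the limit, beside 56.3% and 3.39% of all genes. The Notch pathway list, with 6 of 6 higher, was also uniform in direction. Ptprz1, a receptor phosphatase that is also shed as a proteoglycan, had 1901 CPM in male and 2207 in female members, against 155 and 211 in oligodendrocytes and 1180.2 and 1574 in astrocytes. Tnr, the matrix glycoprotein tenascin R, had 2565 and 2942 CPM against 179 and 135 in oligodendrocytes. Bcan (brevican) had 249 and 281 CPM, and Cspg5 (neuroglycan C) 553 and 451 CPM. In astrocytes Bcan was higher still, at 398 and 383 CPM. Of 22 list genes measured between the libraries, 16 were at least 2 times as high in precursors as in both oligodendrocytes and microglia in both libraries. This second yardstick was chosen after the values were seen, and 5.45% of all genes measured between the libraries, sex check genes included, met it.

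Receptors for growth and differentiation factors were measured against other barcodes for 18 of 32 genes. Of these, 13 were higher in precursors in both libraries and 1 passed the limit, beside 56.3% and 3.39% of all genes. Erbb4, a neuregulin receptor, had 2003 and 2127 CPM in members against 939 and 1536 in oligodendrocytes. Notch1, which restrains differentiation, had 59.4 and 61.3 CPM in members against 10.2 and 10.98 in oligodendrocytes. Gpr17, the receptor of newly committed cells, had 53.2 CPM in male and 30.1 in female members and at most 7.91 in the other populations. It was seen in 15.6% of male and 8.998% of female members, against 1.57% and 0.815% of microglia. With every nucleus thinned to 1000 UMIs these shares were 6.35% and 3.70% of members.

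Glutamate receptor genes were a mixed group. Of 20 measured, 8 were higher in precursors than in other barcodes in both libraries and 12 were lower. The limit was passed upwards by 2, Cacng4 and Grin3a, and downwards by 3, beside 3.39% and 0.775% of all genes. Grin3a, an NMDA receptor subunit that lowers calcium flow, had 405 and 345 CPM in members against 59.2 and 60.1 in neurons. Gria4, an AMPA receptor subunit, had 694 and 744 CPM against 270.1 and 353 in neurons. By contrast Gria1 had 501 and 408 CPM in members, below its 807 and 534 in oligodendrocytes. In all, 7 of 26 measured glutamate receptor genes were at least 2 times as high in precursors as in oligodendrocytes and in microglia in both libraries, among them Cacng4, Gria4, Grid1, Grik3, Grik4 and Grin3a. Of 13 GABA receptor genes, 2 did so, Gabra3 and Gabrg3. Of all genes measured between the libraries, 5.45% met the same yardstick.

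Ion channel genes were measured against other barcodes for 32 genes, of which 10 were higher and 22 lower in precursors in both libraries. Kcnh8 and Kcnip3 passed the limit upwards and 3 genes passed it downwards, beside 3.39% and 0.775% of all genes. By the comparison with oligodendrocytes and microglia, 8 of 42 were at least 2 times as high, beside 5.45% of all genes. These 8 are potassium channels or their partners, as are 20 of the 42. Kcnd2, the pore of the A-type current, had 3425 and 3646 CPM in members and 3081 and 3446 in neurons, while oligodendrocytes had 907 and 704. Kcnj16, an inward rectifier subunit, had 22.4 and 44.2 CPM in members against 5.52 and 10.3 in oligodendrocytes. Of synaptic and adhesion genes, 25 of 41 were higher and 15 lower than in other barcodes in both libraries, 3 passed the limit upwards and 2 downwards, and 19 of 45 were at least 2 times as high as in both glial populations. Dscam had 2758 and 2476 CPM against 547 and 542 in neurons, and Lrrc4c had 5390.1 and 5532 against 1334 and 1322.

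A small share of members held several UMIs of cell cycle genes. The list of cell cycle genes was read without Anln, which had 369 and 425 CPM in mature oligodendrocytes and is also a gene of myelinating cells. Over the 33 genes left, 7 male members (1.85%, 0.748 to 3.78%) and 18 female members (3.68%, 2.196 to 5.76%) had at least 5 UMIs over at least 3 genes, and the intervals overlap. The same measure was met by 0.218% of male and 0.207% of female oligodendrocytes, 0.442% and 0.556% of astrocytes, 0.392% and 1.43% of microglia, and 0.386% and 0.563% of neurons. A narrower measure, at least 2 UMIs of Mki67 and Top2a together, was met by 0.794% of male and 1.64% of female members. Neurons, which were deeper at medians of 5034 and 4494 UMIs, met it in 0.804% and 1.15% of nuclei. Male precursors thus did not exceed neurons by this measure. Microglia met it in 0.196% and 1.22%, oligodendrocytes in 0.218% and 0.0415%, and astrocytes in 0.662% and 0.222%. The interval of female precursors, 0.709 to 3.20%, included the values of female neurons and microglia. After thinning each nucleus to 1000 UMIs, 2 of 378 male and 6 of 486 female members met the first measure, over the 33 genes. So did 1 of 509 male and 4 of 490 female microglia, and at most 1 nucleus per library in each remaining population. The 7 male and 18 female nuclei that met the first measure at full depth held all Top2a UMIs of the members, 13 male and 36 female. They also held 24 of 26 female Cenpf UMIs, 14 of which came from 1 nucleus. For Mki67, a gene of all dividing cells, they held 3 of 9 male and 16 of 22 female UMIs. All 3 genes belong to the list that chose these nuclei. These nuclei had median rule marker sums of 19 UMIs (male) and 26 (female). They were deeper than other members, at a median of 3795 and 4430.5 UMIs, and 2 male and 3 female nuclei of them met another population's rule. The measure was set after the values were seen.

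**Figure D2:**
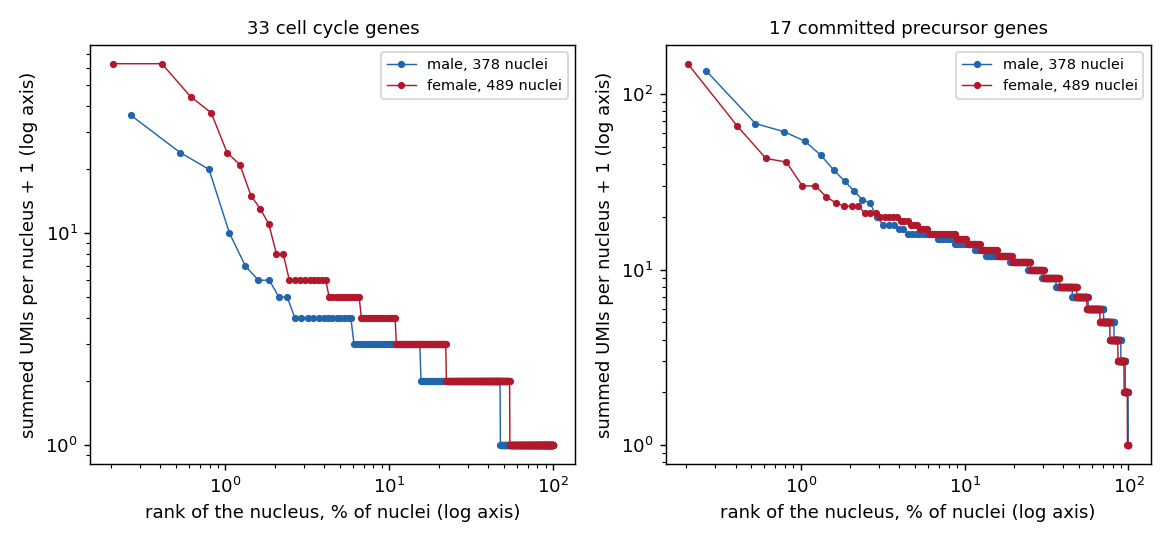
Summed UMIs per member nucleus over 33 cell cycle genes (left) and 17 committed precursor genes (right), with nuclei ranked from the highest and the rank given as a percentage of the library's members. The vertical axis is the sum + 1, both axes are log axes, each point is 1 nucleus and lines join the points of a library. Most members hold few cell cycle UMIs and a few hold many, while the committed genes fall off more gradually in both libraries.

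Committed precursor genes were higher than in other barcodes for 9 of 9 measured, of which 3 passed the limit (Neu4, Tmem163 and Itpr2), beside 56.3% and 3.39% of all genes. The list sum per nucleus had a median of 6 UMIs in each library. A few nuclei stood far above, with 135, 67 and 60 UMIs as the highest male and 148, 65 and 42 as the highest female sums. Nuclei with at least 25 list UMIs, a limit chosen after the values were seen, were 8 of 378 male and 7 of 489 female members. They held 17 of the 19 male and 10 of the 15 female UMIs of Enpp6, an ectoenzyme of cells about to myelinate and a gene of the list that chose them. A single nucleus held 10 of the male and 8 of the female Enpp6 UMIs. They held 7 of 69 male and 7 of 51 female Gpr17 UMIs, so most Gpr17 lay outside them. Pdgfra had 15 UMIs in these male nuclei and 1 in the female nuclei, of 851 and 1053 in all members.

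Male and female members were then compared gene by gene. A gene was compared if its members' UMIs summed to 50 or more and it reached 20 CPM in 1 library or both. Of the 8208 genes compared, 78 (0.95%) had a ratio past 2-fold (log2 of at least 1 in size, with 5 CPM added). These were 38 genes higher in the male (0.463%) and 40 higher in the female library (0.487%), the sex check genes left out. A gene that reached 20 CPM in 1 library alone had to differ in that direction. The counts include such genes, among them genes at both ends of the ranking below. With at least 200 UMIs over both libraries, 10 male-high and 10 female-high of 3110 genes were past 2-fold. The median over all genes was 0.06, and centring on it gave 24 and 51. The rule markers had ratios from -0.42 (Vcan) to 0.11 (Cspg4).

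**Figure D3:**
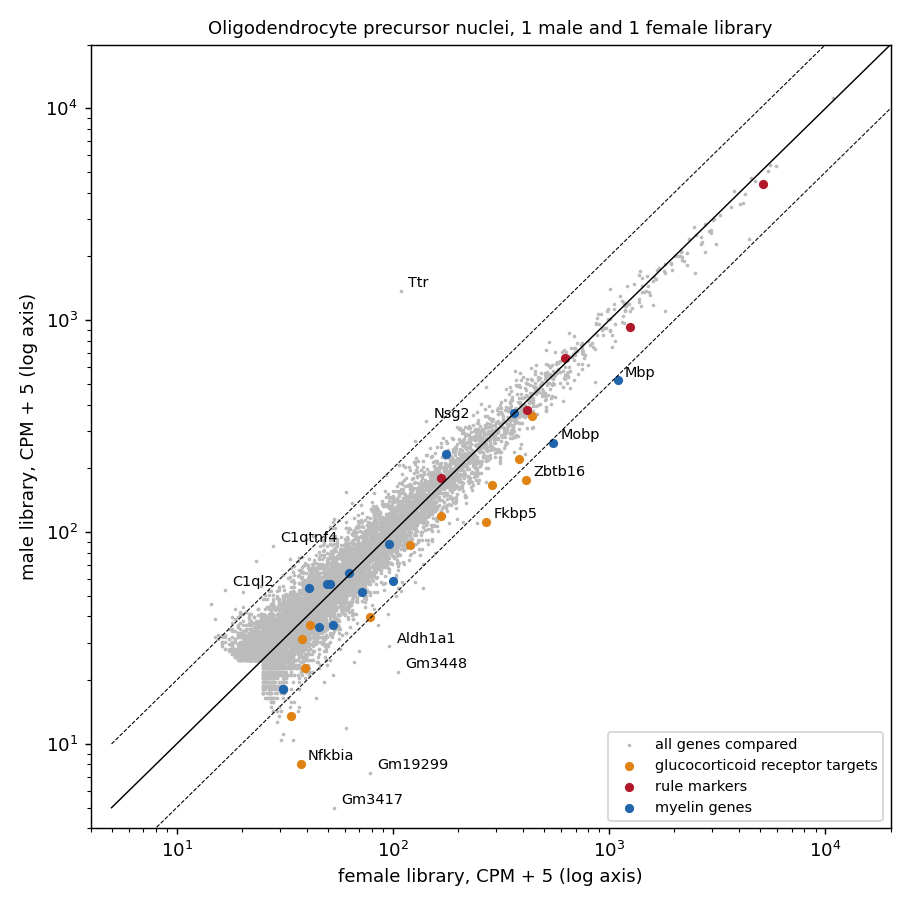
Level of each compared gene in female (horizontal) and male (vertical) precursors, as CPM + 5 on log axes, 1 point per gene and 1 library per axis. The solid line is equality and the dashed lines are 2-fold. Ttr lies farthest above the upper line, and all 13 coloured glucocorticoid receptor targets lie below equality.

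The gene with the highest ratio in male members was Ttr (chromosome 18), which codes for transthyretin, a thyroid hormone carrier made in the choroid plexus. It had 1375 CPM in male and 104 in female members (log2 3.67), and 96.6% of male and 27.0% of female members had a UMI. The male level was above the female level in each other population as well, with oligodendrocytes at 1712 against 133 CPM, microglia at 1922 against 157 and neurons at 859 against 78.04. Microglia, which should lack the gene, had a UMI in 96.1% and 23.4% of nuclei, and higher CPM than precursors, so the shares in precursors are not read as expression.

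The other 11 of the 12 highest genes were C1ql2, Cemip, Trpc6, C1qtnf4, Rasl10a, Gm44151, Calb1, Fam163b, Nsg2, Pcdh19 and Crtac1, with log2 ratios from 1.19 to 1.67. All 12 were higher in the male library in all 5 populations. In 10 of the 12 the level in neurons was above that in precursors in both libraries. The shares of all genes that do the same are not given, so neither count is read as a result. Trpc6, a cation channel, had 67.8 CPM in male and 18.3 in female members, and 234 and 142 CPM in neurons. Nsg2, a neuronal vesicle protein and an exception, had 328 and 137 CPM in members and 319 and 178 in neurons. In the neuron marker list, 11 of 12 genes were higher in the male members, beside 57.0% of all genes compared, with a median of 0.34. The list sum was 4951 and 4105 CPM. In oligodendrocytes the list sum was 6535 and 4654 CPM, and in microglia 6253 and 4767. With members that met another rule left out the median was 0.18. The part of neuronal RNA in these ratios was not tested.

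Of the 12 genes highest in the female members, 9 were higher in the female library in all 5 populations, and none was past 2-fold in all 4 other populations. Shares over all genes are not given for these counts either. Gm19299, a long non-coding RNA gene on chromosome 9 (mm10, 67133560 to 67213918, 3169 bases from Tln2), had 3 UMIs in 2 male nuclei and 124 UMIs in 84 female nuclei. These are 2.31 and 73.1 CPM, a 31.6-fold difference (10.6 to 155) in CPM. In female members 17.2% had a UMI, against 0.204% of female microglia, and the other populations stood at 0 to 1.18 CPM in both libraries. Female precursors thus stood apart from all other populations of either library, while the male value rests on 3 UMIs.

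Gm3417 had 0 UMIs in the male and 82 UMIs in 62 nuclei of the female members, at least 20.9-fold higher in the female against a floor of 3 counts in the male. Its neighbours on chromosome 17 moved the same way: Gm3448 had 16.96 and 100.2 CPM and 9030025P20Rik had 19.3 and 61.3 CPM. Gm3417 and 9030025P20Rik overlap on opposite strands, and genes of this cluster have near-identical copies, so their values are uncertain. C730002L08Rik, with 6.94 and 56.0 CPM, overlaps Aldh1a1 on the opposite strand. Aldh1a1, a retinaldehyde dehydrogenase, had 23.9 and 91.4 CPM, and it was also lower in the male library in oligodendrocytes (30.1 against 76.2 CPM) and astrocytes (164 against 363 CPM). F13a1 had 7 and 50 UMIs, and 34 of the 50 female UMIs came from 1 nucleus. Gprin3 had 5.40 and 25.3 CPM, and its ratio of -1.55 became -0.52 without the limit on total UMIs.

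**Figure D4:**
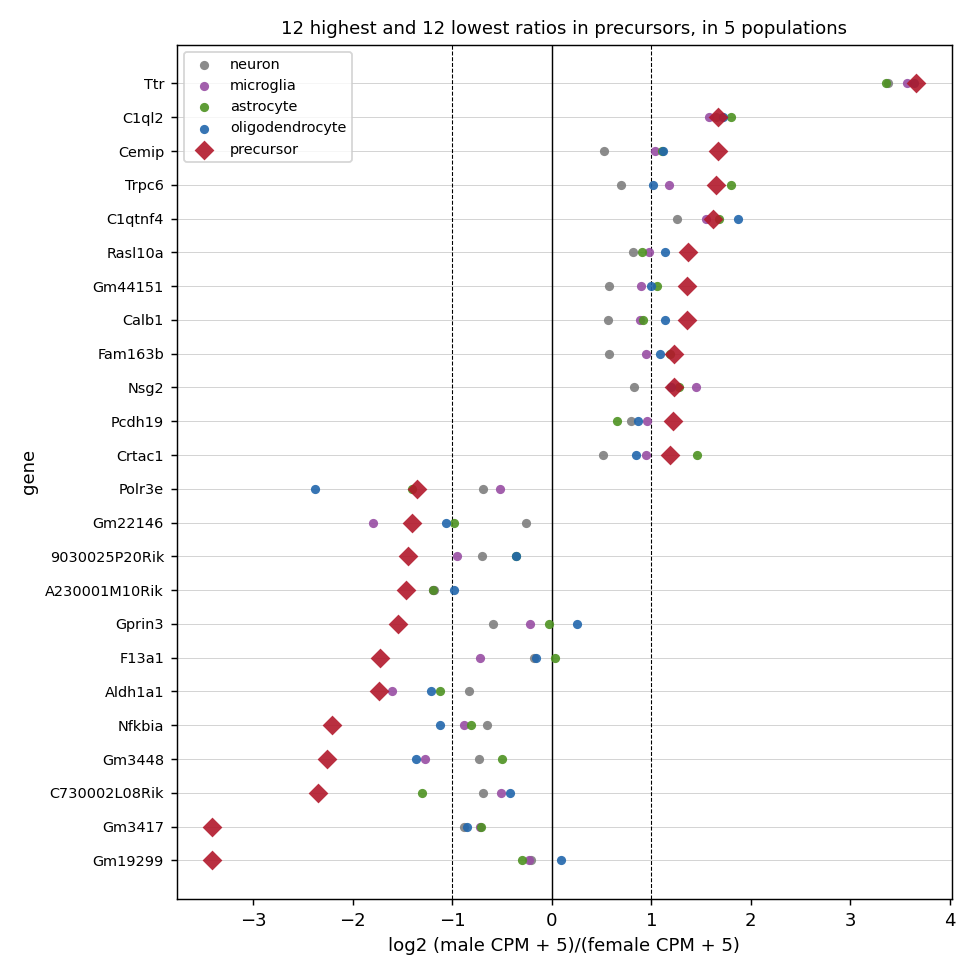
Male to female log2 ratio (5 CPM added) of the 12 highest and 12 lowest genes of the precursors, in precursors (diamonds) and 4 other populations (circles). Dashed lines are 2-fold. The male-high genes lie to the right of 0 in every population, while Gm19299 and Gm3417 lie far to the left in precursors alone.

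Targets of the glucocorticoid receptor, the nuclear receptor for corticosterone, were lower in the male members. All 19 listed genes had a lower CPM in the male, and 13 of them were measured. Of all genes compared, 57.0% were higher in the male. Of these 13, 4 were past 2-fold, against the 0.487% of all genes given above. A gene that was measured through its female level alone had to differ. There were 10 genes at 20 CPM or more in both libraries, all lower in the male with a median of -0.63 and 2 past 2-fold. The share of all genes past 2-fold under this limit is not given. Fkbp5, a co-chaperone that curbs the receptor, had 107 CPM in male and 265 in female members (log2 -1.27). Zbtb16, a zinc finger repressor, had 172 and 408 CPM (-1.22). Sgk1, a kinase whose promoter is printed above, had 163 and 281 CPM (-0.77). Nfkbia, which holds NF-kappaB in the cytoplasm, had 4 and 55 UMIs (-2.21), and Hif3a 11 and 49 UMIs (-1.33). Klf9 differed less, with 114 and 161.5 CPM (-0.48), and Per1 least of the measured targets, with 31.6 and 36.5 CPM (-0.18).

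Most of these 13 genes were also lower in the male library in other populations: 12 in oligodendrocytes, 13 in astrocytes, 11 in microglia and 11 in neurons. Shares of all genes in those populations are not given, so these counts are not read as a result. The list median over the 13 genes was -0.79 in precursors, -0.66 in oligodendrocytes, -0.69 in astrocytes, -0.35 in microglia and -0.35 in neurons. The 13 were chosen by their levels in precursors, some through the female level alone, so these medians are not ranked. Over the 10 genes at 20 CPM or more in both libraries the precursor median was -0.63. Fkbp5 had 488 CPM in male and 1546 in female microglia. Its oligodendrocyte levels were 87.3 and 258 CPM, and its neuron levels 103 and 133. The difference between populations was not tested. Over the alternative settings the median of the targets measured in precursors, chosen in the same way, ran from -0.84 to -0.40. It was -0.59 without members that met another rule.

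**Figure D5:**
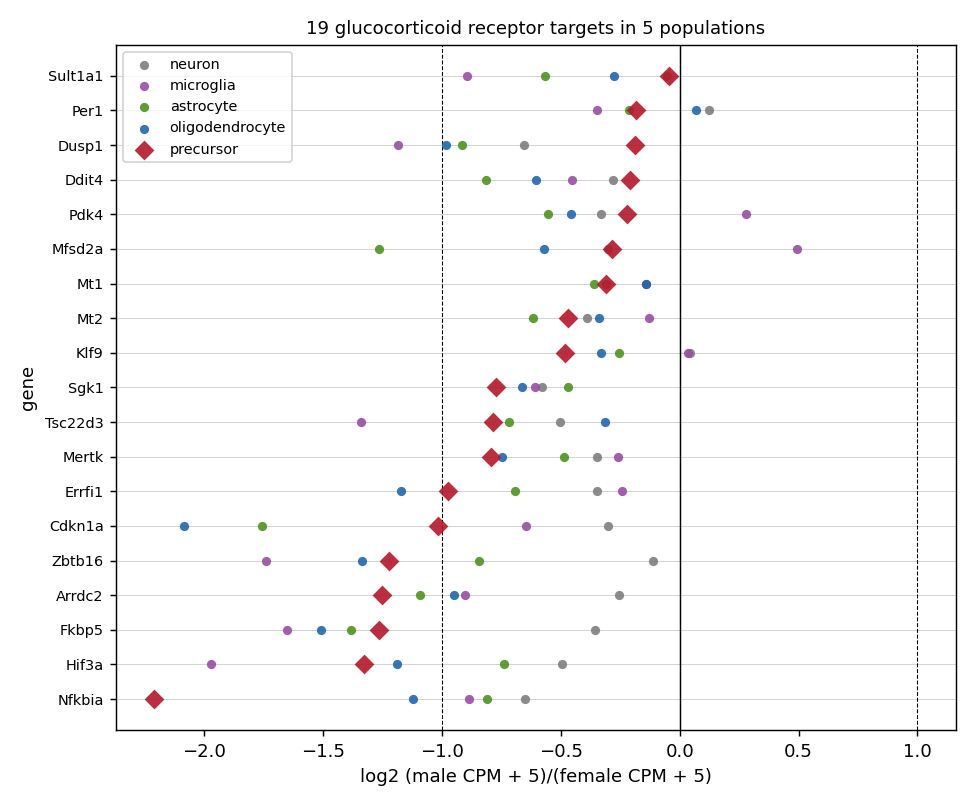
Male to female log2 ratio (5 CPM added) of 19 glucocorticoid receptor targets in precursors (diamonds) and 4 other populations (circles), ordered by the ratio in precursors. All 19 diamonds lie left of 0. For the 10 genes at the bottom, placed there by their ratio in precursors, the neuron circles lie closer to 0 than the diamonds.

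Myelin genes were mixed in direction. Of 21 listed, 15 were measured, 6 were higher and 9 lower in the male, and Mbp and Mobp were past 2-fold, against 0.487% of all genes. Of the 13 at 20 CPM or more in both libraries, 6 were higher and 7 lower, with a median of -0.12. Mbp, myelin basic protein, had 516 CPM in male and 1090.45 in female members (log2 -1.07). Mobp had 260 and 546 CPM (-1.06). The oligodendrocyte marker list had 445 and 790 CPM in sum, but it holds Mobp, which gave 260 and 546 CPM of these. Mbp was also lower in male microglia, at 688 against 1237 CPM, above the precursor level in both libraries. Neurons, at 381 and 640.4 CPM, stood below it. Without the limit on total UMIs the ratios of Mbp and Mobp became -0.44 and -0.47. The part of oligodendrocyte RNA in these ratios was not tested.

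Among the lists that define the lineage, the transcription factors had 16 of 23 measured genes higher in the male, a median of 0.15 and none past 2-fold, beside 57.0% higher, a median of 0.06 and 0.95% past 2-fold over all genes. At that share lists of this size can be without a call. Nfix at 0.64 and Sox8 at 0.58 were the highest. The proteoglycan and matrix list had 13 of 22 higher in the female, a median of -0.05 and none past 2-fold. Glutamate receptors (median 0.13), ion channels (0.05) and adhesion genes (0.05) also held none past 2-fold. Among committed precursor genes, Cnksr3 was past 2-fold, with 20.04 CPM in male and 45.98 in female members, and its ratio of -1.03 became -0.75 without the limit on total UMIs. Of 34 cell cycle genes, 29 had a lower CPM in the male, but 5 were measured, of which none was past 2-fold. Of the list UMIs, 104 of 357 male ones lay in 7 nuclei and 353 of 766 female ones in 20 nuclei. The share of all genes at such low levels is not given either, so the 29 are not read as a result.

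Stra8, the gene deleted, known as the switch into meiosis in germ cells, had 0 UMIs in the 378 male and the 489 female members, which allows a level of up to 2.31 and 1.77 CPM. It was nearly absent from the other populations too, at no more than 0.576 CPM, so its value does not check the deletion. Of 23 meiotic genes listed in the files, 4 were measured. Sycp2, an axial element protein of the meiotic chromosome, had 133 CPM in male and 191 in female members, against 34.5 and 51.9 in oligodendrocytes, 112 and 135 in astrocytes and 14.1 and 33.6 in microglia. Sycp3 had 42.4 and 62.5 CPM in members against 7.91 and 11.8 in microglia.

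Zfp804b, a zinc finger gene chosen after its values were seen, differed between the libraries in mature oligodendrocytes, at 1020.2 CPM (male) against 106 (female; log2 3.21). In precursors it had 69.4 and 55.4 CPM (0.30), from 90 and 94 UMIs in 42 and 40 nuclei, and the counting interval of the ratio included equality. Microglia had 80.9 and 84.8 CPM, above its precursor level in both libraries.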

How the data were processed

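Each library's matrix, as deposited, holds whole-number UMI counts by gene for each barcode. Per the file headers the authors used Cell Ranger 7.0.1. The submitters' processing notes also name bcl2fastq 2.20.0.422 and the mouse build mm10. How nuclei were called, whether intronic reads were counted, and which annotation was used is not given in the sources used here. Droplet libraries were made with the 3' v3.1 kit at a target of 10000 nuclei per library, per the labels' protocols.

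Here, counts of members were summed per library, scaled to CPM and compared as log2 of male CPM + 5 over female CPM + 5, which understates ratios of low genes. Intervals are exact (Clopper-Pearson for shares, conditional binomial for ratios, Poisson for sums) at 95%. No p-value was computed. Doublets were not removed, and leaving out the top 8% of Scrublet scores per library was an alternative. Named genes were the 25 most raised over other barcodes, the 12 highest and 12 lowest male to female ratios, the 2 highest and 2 lowest of each of 30 lists, the 5 markers and Stra8. Other genes of the lists and Zfp804b were named after their values were seen. Members and lists were chosen with earlier results of these data known. Positions came from GENCODE vM21, with 32235 of 32285 gene identifiers matched. The sums and ratios were tested on simulated data. Python 3.11.15, numpy 2.4.6, scipy 1.17.1, pandas 2.3.3, scanpy 1.11.5 and matplotlib 3.10.9 were used. Values of some list genes are not reported here.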

Additional observations from a re-analysis of the deposited data

How the results depend on the processing

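None of the 29 named genes past 2-fold changed sign under any alternative run, while 19 of their 235 values fell under 2-fold. The male to female ratio of shares, 0.928, crossed 1 under 1 alternative. The alternatives gave 54 values of shares and gene counts, 1324 of single genes and 235 of list medians. Of these, 24, 92 and 3 moved beyond their counting interval or by over 1.5 times.

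Without the limit on total UMIs the male share was 3.17% and the female 3.19%, with 14 genes higher in the female and 42 raised over other barcodes. At most 1% mitochondrial UMIs gave a female share of 2.07%, a ratio of shares of 1.07 and 76 genes higher in the male. At least 1000 genes gave a female share of 3.09% and a ratio of 0.832. Thinning to 1000 UMIs gave shares of 1.19% and 1.48%, a ratio of 0.804, 17 and 19 genes past 2-fold and 58 raised over other barcodes. Leaving out members that met another rule, an alternative chosen after seeing the data, gave 1.95% and 2.10%. With the 5 populations as the total, shares were 4.36% and 5.53% with a ratio of 0.788. Centring gave 24 genes higher in the male, 1 CPM added gave 77 and 66, and a minimum of 200 UMIs gave 10 and 10. The cause of these moves was not tested.

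Leaving out members with 3 or more neuron marker UMIs was not run, since too few nuclei remained. No paired analysis was possible because each group has 1 library and the labels carry no replicate numbers. Depth limits genes under the 3-count floors of 2.31 CPM (male) and 1.77 CPM (female).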

Other observations

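Several gene groups without a place in the comparisons above are given here as values. Of 33 guidance genes measured, 24 were higher in the male members with a median of 0.13, and none was past 2-fold, beside 57.0% of all genes higher in the male and 0.95% past 2-fold. Of the 33, 4 were at least 2 times as high in precursors as in oligodendrocytes and microglia in both libraries, beside 5.45% of all genes. These were Ntn1, Sema5b, Sema6d and Dcc. Sema5b had 168 CPM in male and 153 in female members against 6.35 and 4.62 in oligodendrocytes. Bmp7, a bone morphogenetic protein, had 31.6 and 33.6 CPM in members and at most 1.91 CPM in oligodendrocytes, microglia and neurons. Dner, a ligand-like protein of the Notch pathway, had 227 and 206 CPM against 83.1 and 68.8 in oligodendrocytes.

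Marker lists of vascular and meningeal cells are given as sums. The endothelial list summed to 26.2 CPM in the male and 18.3 in the female members, and the fibroblast list to 49.3 and 55.4 CPM. The pericyte and smooth muscle list summed to 161 and 172 CPM. It was above oligodendrocytes (83.7 and 123 CPM), microglia (51.9 and 54.6) and neurons (115 and 98.5), and below astrocytes (172 and 175). Cald1 gave 178 of its 209 male and 214 of its 292 female UMIs in members. The ependymal and choroid plexus list summed to 1429 and 133 CPM, of which Ttr alone gave 1375 and 104. Polr3e, a subunit of RNA polymerase III, had 22.4 CPM in male and 64.8 in female members, and 100.5 and 543 CPM in oligodendrocytes. A230001M10Rik, a non-coding gene, had 6.17 and 25.9 CPM in members and 338 and 672 CPM in oligodendrocytes.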
